A study of Rattus norvegicus with 8 samples.

Results

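The growth hormone and insulin-like growth factor (IGF) axis of the liver was followed through 9 genes: Ghr, Stat5b, Socs2, Igf1, Igfals, Igfbp3, Igfbp1, Igfbp2 and Igfbp4. They were found by matching the RefSeq accession printed for each array probe to these rat symbols, which gave 13 of the 30367 probes of the array and 9 of the 15168 symbols matched. Ghr had 3 probes, Igf1 and Igfbp2 had 2 each, and the other genes had 1. The tissue was liver of male rats, 22 weeks old, and total RNA of each sample was read on 1 array in a single colour. The high-fat group held 5 samples, taken after 14 weeks on a high-fat diet and labelled NAFLD (non-alcoholic fatty liver disease), and the control group held 3 samples from rats kept on standard chow for the same 14 weeks. The labels used here name neither the strain nor the feeding state or hour at sampling, and do not say that each sample is a different animal, so a p-value here covers only the spread among the samples, which may be technical.

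Growth hormone reaches the liver from the pituitary, in separated pulses in male rats. It binds its receptor GHR, which activates the kinase JAK2 and the transcription factor STAT5B, and STAT5B in turn drives Igf1, Igfals and the feedback inhibitor Socs2. Most IGF1 in blood comes from the liver and circulates in a complex with IGFBP3 and the acid-labile subunit, the product of Igfals. IGFBP1 and IGFBP2 are smaller binding proteins that hepatocytes make in fasting or when insulin is low, and IGFBP4 is an abundant binding protein that limits IGF action.

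Levels are given as log2 signal after subtracting the 75th percentile of the array, and the number of arrays limits the precision. All 13 probes were well above background on all 8 arrays. That percentile lay between 725 and 1045 intensity units in the high-fat group, and at 300.1, 559 and 278 for chow replicates 1, 2 and 3. High-fat arrays 1 and 4 shared a scan time, as did high-fat arrays 2, 3 and 5, and the 3 chow arrays shared another. Each scan time is taken as 1 slide, so slide and diet cannot be told apart. The SEs and intervals below take the arrays as independent unless stated. With slide as a random block the correlation within a slide was 0.45, and the SE was larger for each of the 9 genes. Differences between diets also moved with brightness: with features split into 10 equal bins of brightness (deciles), the median log2 difference was −0.24 in the brightest decile, −0.14 in the next and 0.51 in the dimmest.

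No gene of the axis passed the test between diets. In limma, a linear model with a moderated variance, with Benjamini-Hochberg adjustment over 22871 features and a threshold of 0.05, 0 of the 9 genes were called, against 3.56% of all features. At an unadjusted p of 0.05, 1 of 9 passed (Igfals, lower), against 20.2% of all features in either direction and 9.37% in the lower direction. Of the 9 differences 8 were below 0, with a median of −0.36 against −0.01 over all features, but Igf1 turned positive after quantile normalization, after cyclic loess and in the authors' value table. In those 3 settings the median over the 9 genes was −0.18, −0.17 and −0.18. Of the hepatocyte markers all 10 had negative differences, with a median of −0.37 (7 of 10 negative, with a median of −0.07, after quantile normalization), and 0 of 10 were called in limma (4 unadjusted). Their mean level lay between 5.42 and 5.64 in the high-fat group and was 6.02, 5.51 and 6.05 in chow replicates 1, 2 and 3. The part of the markers in the results below was not tested, and in whole liver fewer cells of a type and less RNA per cell cannot be told apart.

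**Figure D1:**
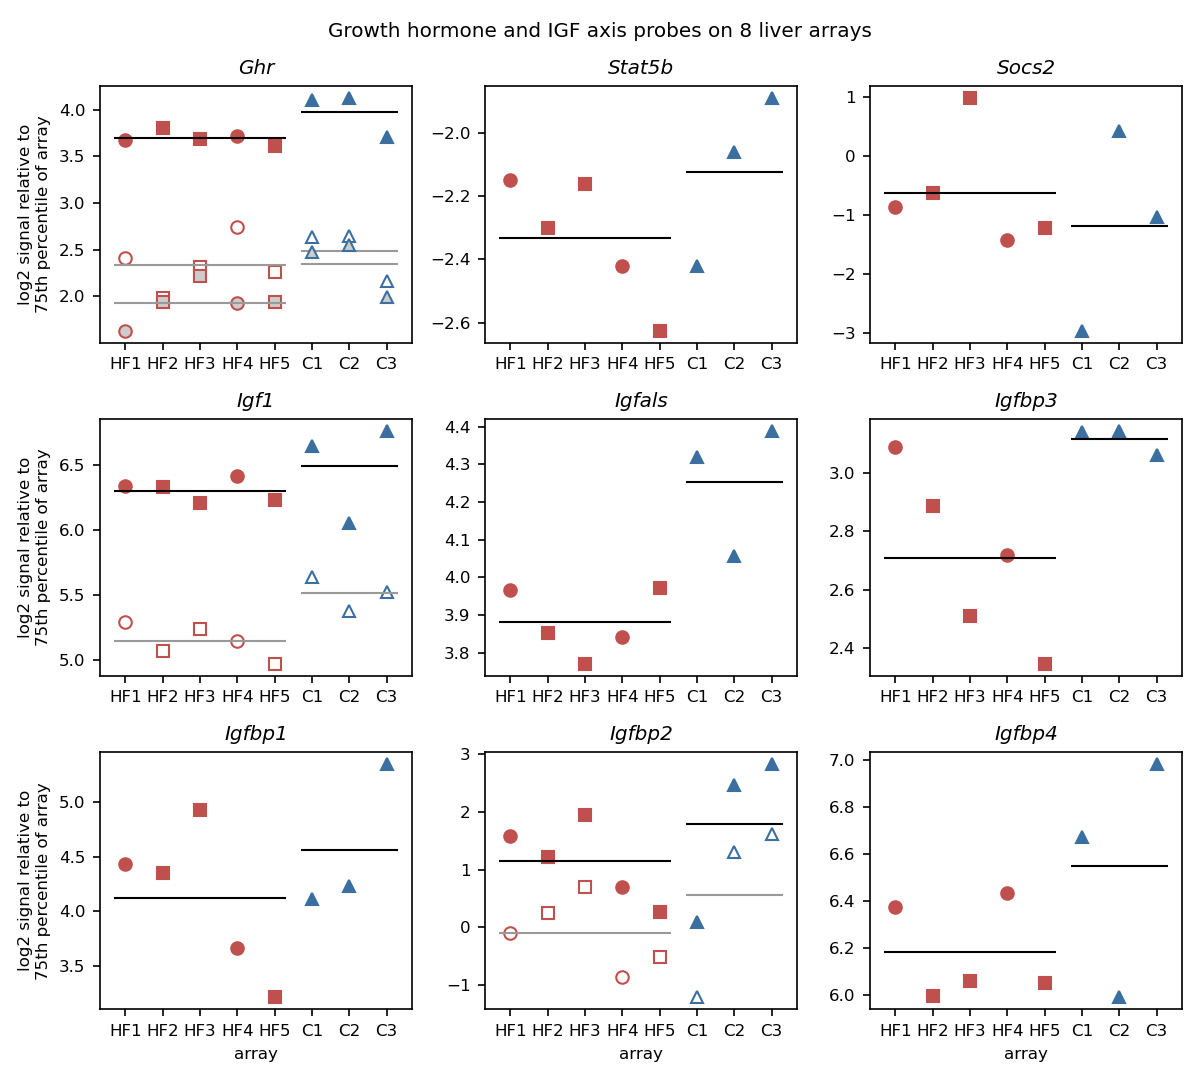
Log2 signal of the 13 probes relative to the 75th percentile of the array, by array: HF1 to HF5 are high-fat arrays (red), C1 to C3 chow arrays (blue), marker shapes give the scan, filled symbols the probe used for the gene, open or grey-filled symbols its other probes, and lines the group means. The diets overlap in all genes except Igfals, where the 5 high-fat arrays lie below 4.06, and the second Igf1 probe.

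Neither the receptor nor its transcription factor was called between diets. The brightest Ghr probe read 3.68, 3.80, 3.69, 3.72 and 3.61 on the high-fat arrays, in the order 1 to 5, and 4.11, 4.13 and 3.70 on the chow arrays, in the order 1 to 3. The high-fat arrays were tightly grouped, and chow array 3 lay among them while chow arrays 1 and 2 lay above. The mean was 3.70 ± 0.07 (SD, n = 5) against 3.98 ± 0.24 (SD, n = 3), a log2 difference of −0.28 ± 0.15 (SE, limma adjusted p = 0.327). The 95% interval of the difference ran from −0.62 to 0.06, so a fall of more than 1.54-fold lay outside it at this probe. This bound takes the arrays as independent, and with slide as a random block the SE was 0.25. The difference was −0.10 after quantile normalization and in the authors' table (adjusted p = 0.779 and 0.772) and −0.08 with cyclic loess. The other Ghr probes gave −0.41 ± 0.19 and −0.14 ± 0.20 (SE, limma adjusted p = 0.273 and 0.760 over all 25627 probes kept, 3.45% of which were called), with 95% intervals from −0.84 to 0.02 and from −0.61 to 0.32, and differences between probes in the change were within the spread of the arrays (exact permutation p from 0.286 to 0.482, two-sided, 0.603 after adjustment over 5 pairs of probes of the same gene). On the probe with the smallest difference, high-fat array 4 was the highest of all 8 arrays at 2.74 and high-fat array 2 the lowest at 1.99.

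Stat5b, the factor that carries the growth hormone signal to the nucleus, read −2.15, −2.30, −2.16, −2.42 and −2.63 on the high-fat arrays and −2.42, −2.06 and −1.89 on the chow arrays. Chow array 1 lay within the high-fat range and the other chow arrays above it. The log2 difference was −0.21 ± 0.18 (SE, limma adjusted p = 0.576), with a 95% interval from −0.62 to 0.20. It was −0.31 after quantile normalization and in the authors' table (limma adjusted p = 0.420 and 0.412), and −0.09 without chow array 3 (adjusted p = 0.894). With a normexp background, a model-based subtraction, it was −0.41 (limma unadjusted p = 0.0427, adjusted p = 0.231), where the median over all features was −0.29.

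Igf1, the main hormone of the axis, was among the brightest genes on the array, brighter than 99.6% of features. Its brighter probe read 6.34, 6.33, 6.21, 6.41 and 6.23 on the high-fat arrays and 6.65, 6.06 and 6.77 on the chow arrays. Chow array 2 lay below every high-fat array, and chow arrays 1 and 3 lay above them all. The difference of −0.19 ± 0.18 (SE, limma adjusted p = 0.629) had a 95% interval from −0.61 to 0.23. At this probe and with this normalization, a fall of more than 1.52-fold and a rise of more than 1.17-fold lay outside it. These bounds take the arrays as independent, and with slide as a random block the SE was 0.31. The difference ran from −0.41 without chow array 2 (adjusted p = 0.187) to −0.05 without chow array 3 (adjusted p = 0.944). It was 0.13 after quantile normalization and in the authors' value table (adjusted p = 0.522 and 0.524), and the brightest decile of features, to which Igf1 belongs, had a median of −0.24. Chow arrays 1 and 3 were also the arrays with the lowest 75th percentile signal, and hepatocyte markers were higher on them than on chow array 2. The part of either in the Igf1 values was not tested.

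The second Igf1 probe carries the RefSeq accession of another Igf1 transcript. It read 5.29, 5.07, 5.23, 5.15 and 4.96 on the high-fat arrays and 5.64, 5.38 and 5.52 on the chow arrays. Here the diets did not overlap, where 9.17% of all features lay wholly lower on high-fat diet and 17.1% did not overlap in either direction. The log2 difference was −0.37 ± 0.14 (SE, unadjusted p = 0.0292, limma adjusted p = 0.196 over all probes). The other normalizations were fitted for the first probe only. The change of the first probe minus that of the second was 0.18 (exact permutation p = 0.214, two-sided, adjusted 0.603, where 56 splits allow no p below 0.0179).

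Igfals, whose product holds IGF1 and IGFBP3 in the large complex in blood, was the 1 gene of the 9 whose diets did not overlap at its brightest probe, against 9.17% of all features that lay wholly lower on high-fat diet. It read 3.97, 3.85, 3.77, 3.84 and 3.97 on the high-fat arrays and 4.32, 4.06 and 4.39 on the chow arrays. The lowest chow value, on array 2, stood just above the highest high-fat value. The mean was 3.88 ± 0.09 (SD, n = 5) against 4.25 ± 0.18 (SD, n = 3), 1.30-fold lower (log2 difference −0.37 ± 0.14 SE, unadjusted p = 0.0260, limma adjusted p = 0.185). The median over its brightness decile was −0.24, and Igfals lay −0.14 from it. Under quantile normalization of signals corrected by normexp, a model-based background subtraction, Igfals was called, at −0.44 (limma adjusted p = 0.0194, where 9.25% of all features were called), and the adjusted p ran from 0.0534 to 0.883 over the other alternatives. The difference was −0.18 with quantile normalization alone (adjusted p = 0.439) and in the authors' table, and −0.17 with cyclic loess.

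Igfbp3, the partner of IGF1 in that complex, is made in liver mainly by cells other than hepatocytes. It read 3.09, 2.89, 2.51, 2.72 and 2.34 on the high-fat arrays and 3.14, 3.15 and 3.06 on the chow arrays. The chow values lay within 0.08 of each other, while the high-fat values spread over 0.75 and only array 1 reached the chow range. The log2 difference was −0.41 ± 0.19 (SE, limma adjusted p = 0.273), with a 95% interval from −0.84 to 0.02. It was −0.28 after quantile normalization and −0.25 with cyclic loess. With high-fat arrays 1 and 4 alone, those of the first scan, it was −0.21, and with arrays 2, 3 and 5 it was −0.54. Within the high-fat group the arrays of the first scan stood 0.32 above those of the second. Markers of sinusoidal endothelial cells (7 of 10 tested, 0 called) had a mean level of 0.72 to 1.04 on high-fat and 0.93 to 1.02 on chow arrays. Kupffer cell markers (9 of 10 tested, 0 called, 2 lower unadjusted) ran from 1.36 to 1.92 and from 1.55 to 2.10, and their part in the Igfbp3 values was not tested. Among the marker lists of other tissues, 2 of 3 tested muscle markers (Ckm and Acta1) were called higher, but neither was well above background on any chow array, and the median of the list turned from 1.54 to −0.31 with a normexp background. The part of muscle RNA in the values of the axis was not tested.

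**Figure D2:**
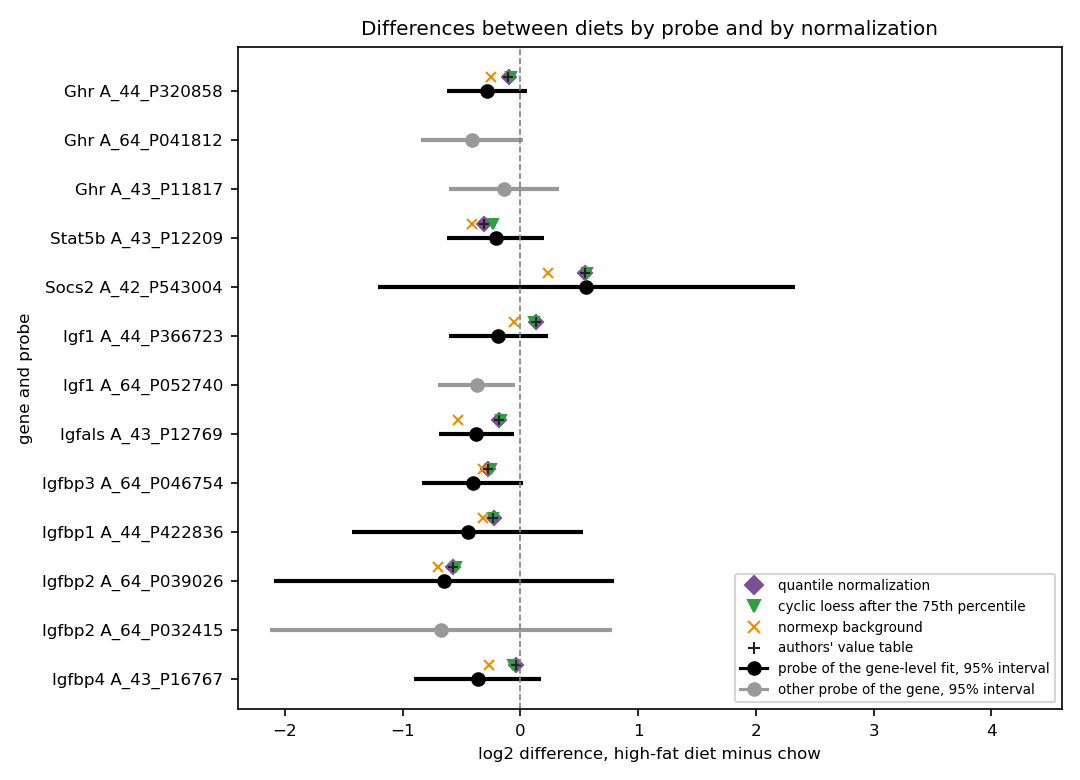
Log2 difference between diets (high-fat minus chow) for each probe with its 95% interval from limma over all probes; small symbols above the bars give the same gene after 4 other normalizations or backgrounds. Intervals of Igf1, Ghr, Stat5b and Igfals are narrow and those of Socs2 and Igfbp2 wide; Igf1 crosses 0 to 0.13 after quantile normalization.

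The insulin-responsive binding proteins varied between arrays of the same diet. Igfbp1 read 4.44, 4.35, 4.92, 3.67 and 3.21 on the high-fat arrays and 4.12, 4.23 and 5.35 on the chow arrays. The lowest values were on high-fat arrays 4 and 5, and the highest was on chow array 3. The mean was 4.12 ± 0.68 (SD, n = 5) against 4.56 ± 0.68 (SD, n = 3), and the log2 difference was −0.45 ± 0.43 (SE, limma adjusted p = 0.625). Its 95% interval, from −1.43 to 0.54, held anything from a 2.69-fold fall to a 1.45-fold rise. Leaving out chow array 1 gave −0.67 (adjusted p = 0.591), leaving out chow array 3 gave −0.05 (adjusted p = 0.974), and quantile normalization gave −0.23. The spread within diets was larger than that of 98.8% of features of the same brightness decile.

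Igfbp2 read 1.58, 1.22, 1.94, 0.70 and 0.26 at its brighter probe on the high-fat arrays and 0.08, 2.46 and 2.83 on the chow arrays. The chow group thus held both the lowest and the highest value of the 8. The log2 difference was −0.65 ± 0.63 (SE, limma adjusted p = 0.631), and the 95% interval reached from a 4.27-fold fall to a 1.74-fold rise. The second probe gave −0.09, 0.24, 0.70, −0.86 and −0.51 against −1.21, 1.31 and 1.61, with a difference of −0.67 ± 0.64 (SE, limma adjusted p = 0.616 over all probes). Both probes put chow array 1 lowest and chow array 3 highest, and the change at the 2 probes differed by 0.03 (exact permutation p = 0.911, two-sided). Without chow array 1 the difference at the brighter probe was −1.5 (limma adjusted p = 0.183), and it was −0.31 and −0.13 without chow array 2 and 3 (adjusted p = 0.875 and 0.960).

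Igfbp1 and Igfbp2 ranked the arrays alike within each diet. On high-fat diet both were highest on array 3, followed by arrays 1, 2, 4 and 5, and on chow both were lowest on array 1 and highest on array 3. The second Igfbp2 probe also put high-fat array 3 first and arrays 4 and 5 last, in another order among the rest. Between the diets they parted: chow array 1 was the lowest of all 8 arrays for Igfbp2 but lay above high-fat arrays 4 and 5 for Igfbp1. No test was made of this order, and the arrays share their slides.

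Igfbp4, a binding protein secreted by hepatocytes, read 6.38, 6.0, 6.06, 6.44 and 6.05 on the high-fat arrays and 6.67, 5.99 and 6.98 on the chow arrays. Chow array 2 was the lowest of the 8 and the other chow arrays the highest. The log2 difference was −0.36 ± 0.24 (SE, limma adjusted p = 0.437), and it was −0.64 without chow array 2 (adjusted p = 0.142) and −0.15 without chow array 3 (adjusted p = 0.847). It was −0.04 after quantile normalization (adjusted p = 0.895), in the authors' table and with normexp and quantile normalization, and −0.07 with cyclic loess. Within the high-fat group the arrays of the first scan (1 and 4) stood 0.37 above those of the second, as large as the difference between diets. Over the 13 probes that gap between scans ran from −0.86 for Socs2 to 0.39 for a Ghr probe.

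Socs2, which encodes a feedback inhibitor of the growth hormone receptor, had the widest range of the axis. It read −0.88, −0.64, 0.98, −1.44 and −1.23 on the high-fat arrays and −2.97, 0.42 and −1.04 on the chow arrays. Chow array 1 was the lowest, high-fat array 3 the highest and chow array 2 the next highest, so the diets overlapped throughout. The mean was −0.64 ± 0.96 (SD, n = 5) against −1.20 ± 1.70 (SD, n = 3), a log2 difference of 0.56 ± 0.78 (SE, limma adjusted p = 0.751) that turned to −0.33 (adjusted p = 0.880) without chow array 1. Its 95% interval held anything from a 2.32-fold fall to a 5.03-fold rise. The array carries this probe on 10 spots, whose spread covers spot noise within an array and not differences in RNA, labelling or hybridisation between arrays. The SD between spots of an array was 0.06 to 0.15, while the arrays spanned 3.95. The lowest and highest spot were −3.17 and −2.73 on chow array 1 and 0.11 and 0.55 on chow array 2, with no overlap between the spots of these arrays. The spread of Socs2 within diets, an SD of 1.25, was larger than that of 99.6% of features of the same brightness decile.

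**Figure D3:**
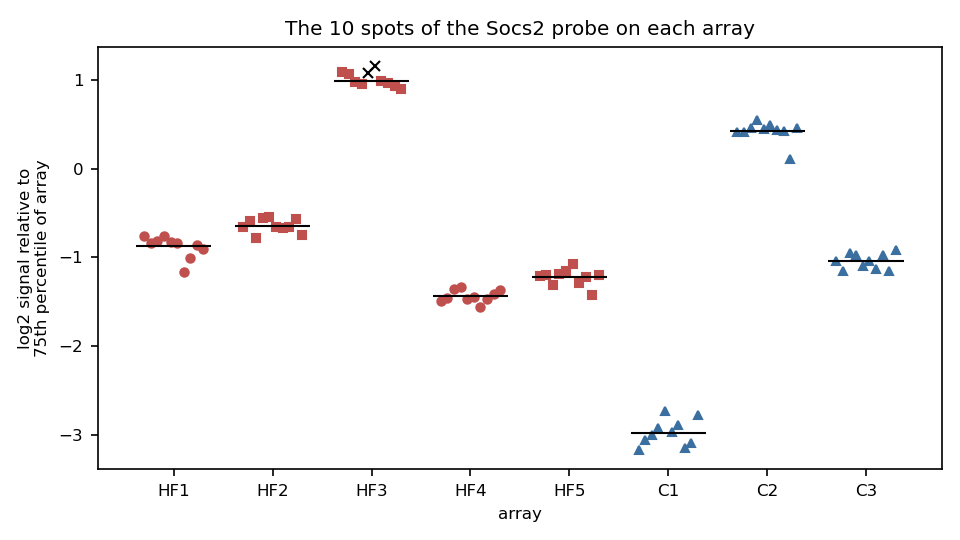
Log2 signal of each of the 10 spots of the Socs2 probe, relative to the 75th percentile of the array, for high-fat (HF, red) and chow (C, blue) arrays; black lines are array means and crosses mark the spots on HF3 that were marked as outliers and left out. Spots of one array lie close together, with an SD of at most 0.15, while array means run from −2.97 to 0.98.

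For each gene the SD within diets was ranked among features of the same brightness decile, as a description with no test. Ghr, Igfals and Stat5b had a smaller spread than most, larger than 17.1%, 8.74% and 21.8% of features of their decile, at the probe used for the gene. Igf1 and Igfbp3 were in the middle range, at 52.1% and 60.5%, and Igfbp4 stood at 86.7%. Igfbp1, Igfbp2 and Socs2 lay at 98.8%, 99.5% and 99.6%. For Ghr and Igf1 the spread depended on the probe. The other Ghr probes had SDs of 0.27 and 0.21 on high-fat and 0.27 and 0.30 on chow diet, against 0.07 and 0.24 at the probe used. The second Igf1 probe had an SD of 0.13 on both diets, against 0.09 and 0.38 at the first. Of 71 genes of the axis and the pathway lists described next, 6 lay above 99%: Socs2, Igfbp2, Bcl6, Onecut1, Atf3 and Prlr. The last 4 were chosen after their values were seen.

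**Figure D4:**
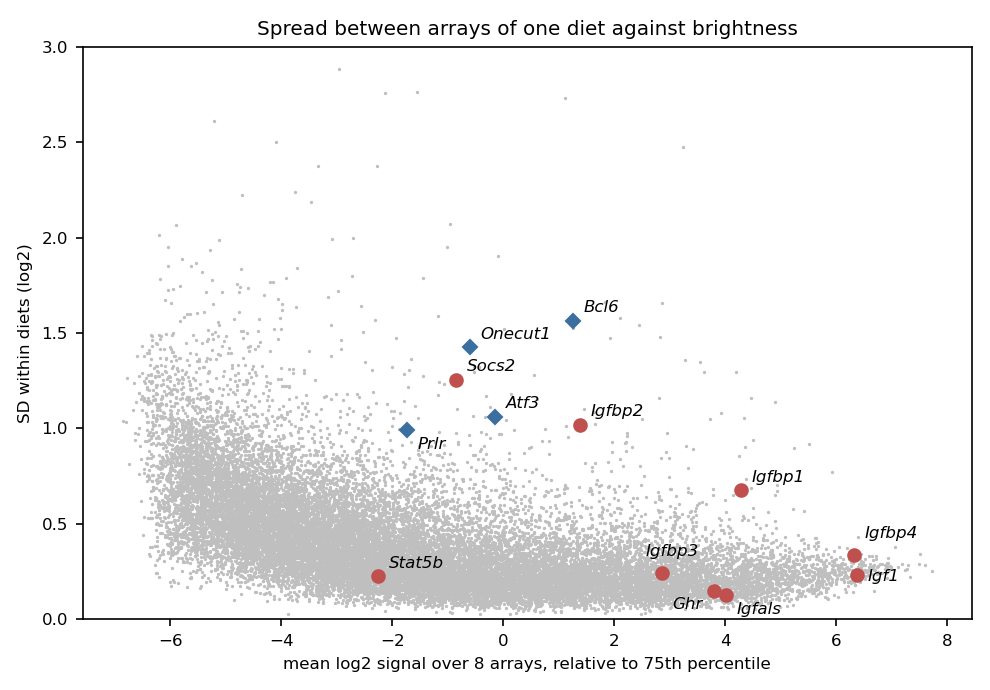
SD between arrays of the same diet (log2, pooled over both diets) against the mean log2 signal of each feature; grey points are all tested features below an SD of 3, red circles the 9 genes of the axis and blue diamonds the 4 pathway genes above the 99th percentile of their brightness decile. Socs2 and Igfbp2 stand above the cloud at SDs of 1.25 and 1.02, and Igfals lies in its lower part.

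Of these variable genes Bcl6 and Onecut1 are known targets of growth hormone in rat liver. Onecut1 encodes the factor HNF6, which a hormone pulse induces, and Bcl6 encodes a repressor that growth hormone lowers. Onecut1 read −1.31, −1.10, 1.11, −0.31 and −0.16 on the high-fat arrays and −2.82, 1.25 and −1.40 on the chow arrays. As with Socs2, high-fat array 3 and chow array 2 were the highest and chow array 1 the lowest. Bcl6 read 1.94, 1.62, −0.25, 0.08 and −0.19 on the high-fat arrays and 3.45, −0.33 and 3.72 on the chow arrays. It was lowest on chow array 2 and high-fat array 3, the arrays where Socs2 and Onecut1 were highest. Bcl6 was nearly as low on high-fat arrays 4 and 5, where Socs2 was lowest in that group (−1.44 and −1.23). Onecut1 was instead lowest in that group on high-fat arrays 1 and 2. Neither gene passed between diets (log2 difference 0.64 ± 0.88 SE for Onecut1 and −1.64 ± 0.97 SE for Bcl6, limma adjusted p = 0.749 and 0.387), and Onecut1 turned to −0.28 without chow array 1. Without chow array 2 Bcl6 was −2.94 (adjusted p = 0.0799). Cish, another rapidly induced inhibitor of the receptor and also chosen after its values were seen, read 0.16, 0.51, 1.5, −0.15 and 0.46 on the high-fat arrays and 0.19, 0.17 and 0.47 on the chow arrays. It was highest on high-fat array 3 but not raised on chow array 2, and its difference was 0.22 ± 0.34 (SE, limma adjusted p = 0.774). Igf1 and Igfals, which STAT5B also drives, ran the other way at the probe used for the gene. Within each diet both were lowest on these arrays: high-fat array 3 (6.21 and 3.77) and chow array 2 (6.06 and 4.06). The second Igf1 probe was lowest on high-fat array 5 (4.96) and chow array 2 (5.38). High-fat array 3 and chow array 2 also had the highest 75th percentile signal of their diet (1045 and 559). The mean level of hepatocyte markers was likewise lowest on chow array 2 among chow arrays (5.51, against 6.02 and 6.05). Among high-fat arrays it was lowest on array 2 (5.42), with array 3 at 5.49. The order of the arrays across the genes of this paragraph was not tested, nor was the part of signal level or markers in it.

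**Figure D5:**
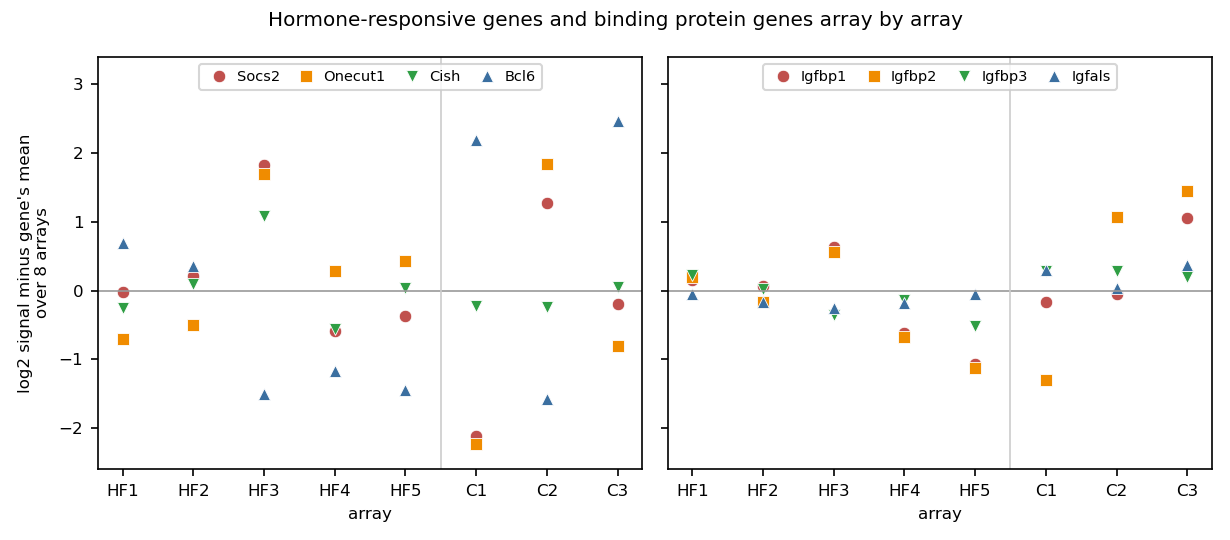
Log2 signal minus each gene's own mean over the 8 arrays, for high-fat (HF) and chow (C) arrays. Left, Socs2 and Onecut1 are highest on HF3 and C2, and Bcl6 is low there and on HF4 and HF5. Right, Igfbp1 and Igfbp2 vary between arrays by more than Igfbp3 and Igfals.

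The other genes of the pathway gave 1 call. Of 72 genes in 7 lists, 62 were tested and 1 was called, higher, against 3.07% of all features called higher and 0.490% called lower; 14 passed an unadjusted p of 0.05 (3 higher, 11 lower, against 10.8% and 9.37% of all features). Among signal carriers and brakes below the receptor, 0 of 12 tested genes were called (2 at an unadjusted p of 0.05, both lower), with a median of 0.11. Grb14, an adaptor that inhibits insulin and IGF receptors and the brightest of that list, differed by 0.09 ± 0.26 (SE, limma adjusted p = 0.887). Stat5a, the close relative of Stat5b and chosen after its values were seen, differed by −0.59 ± 0.22 (SE, limma adjusted p = 0.179), and was called with array weights (−0.75, adjusted p = 0.0252, 13.2% of all features called) and with the high-fat arrays of the second scan alone (−0.81, adjusted p = 0.0321, 12.7% called). With those of the first scan alone it was −0.27 (adjusted p = 0.429).

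Of the other ligands, receptors, binding proteins and proteases of the IGF system, 10 of 15 were tested, 1 rose and 0 fell, with a median of 0.10 that turned to −0.05 with cyclic loess. The gene that rose was Igfbp7, which encodes a secreted protein related to the IGF binding proteins that binds IGFs weakly. It read 1.15, 1.35 and 0.89 on high-fat arrays 2, 3 and 5 and −0.06, −0.67 and −0.27 on the chow arrays. The fit left out high-fat arrays 1 and 4, the arrays of the first scan, where the single spot was marked as non-uniform, and those spots read 1.40 and 1.04. All 5 high-fat readings thus stood above all 3 chow readings, as for 7.94% of all features (17.1% did not overlap in either direction). The mean was 1.13 ± 0.23 (SD, n = 3) against −0.34 ± 0.31 (SD, n = 3), a log2 difference of 1.47 ± 0.23 (SE, limma adjusted p = 0.0239). With the marked spots kept it was 1.5 (limma adjusted p = 0.00496, with 3.52% of all features called). The call was lost with a normexp background (1.42, adjusted p = 0.0564), with slide as a random block (adjusted p = 0.378), and without high-fat array 2 or 3 or any 1 chow array (1.30 to 1.60, adjusted p = 0.0545 to 0.0848). Markers of stellate cells (10 of 10 tested, 0 called, 1 higher and 4 lower unadjusted) had a mean level of −0.99 to −0.53 on high-fat and −0.67 to −0.40 on chow arrays. Those of endothelial cells are given above, and the part of either in the Igfbp7 values was not tested. Igf2r, the receptor that clears IGF2 and the brightest of the list, differed by 0.08 ± 0.14 (SE, limma adjusted p = 0.804).

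No gene was called in any of the 5 remaining lists, which cover responses to growth hormone and insulin and the fasting and amino acid stress response. Of 9 genes that respond to growth hormone through STAT5, 0 were called, 2 passed unadjusted (both lower) and the median was −0.20. Growth hormone raises some of these genes and lowers Bcl6, so the median is no measure of a response. Serpina3c, a serine protease inhibitor induced by growth hormone and the brightest of them, differed by −0.61 ± 0.19 (SE, limma adjusted p = 0.125) and was called with array weights (−0.76, adjusted p = 0.0209) and without chow array 2 (−0.84, adjusted p = 0.0435, 1.92% of all features called). It was −0.21 with quantile normalization (adjusted p = 0.307) and in the authors' table, and −0.05 with normexp and quantile normalization (adjusted p = 0.681). Of 9 genes of the male pattern of rat liver, 0 were called and 2 passed unadjusted (both lower), and their median of −0.27 shrank to −0.01 after quantile normalization and turned to 0.01 after cyclic loess and 0.16 with normexp and quantile normalization. Obp3, of the major urinary protein family, was the brightest (−0.18 ± 0.21 SE, limma adjusted p = 0.697, and 0.14 after quantile normalization). Of 9 genes of the female pattern 8 were tested and 0 called (1 higher and 3 lower unadjusted), with a median of −0.65 (−0.40 after quantile normalization). Cyp2c7, a retinoid-metabolising cytochrome P450 and the brightest of these, differed by −0.59 ± 0.18 (SE, limma adjusted p = 0.113) and was called with array weights (−0.65, adjusted p = 0.0256) and without chow array 2 (−0.80, adjusted p = 0.0420). It was −0.14 with quantile normalization (adjusted p = 0.501) and in the authors' table, and −0.13 with normexp and quantile normalization. Prlr, the prolactin receptor, read −1.73, −1.59, −2.63, −2.02 and −2.03 on the high-fat arrays and −2.26, 0.58 and −2.18 on the chow arrays. Chow array 2 alone was high, and without it the difference of −0.71 turned to 0.22.

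In a list of FOXO factors and of genes that insulin represses through FOXO1, 6 of 9 were tested and 0 called (0 unadjusted). The tested genes included the factors Foxo3 and Foxo4. The median of −0.09 turned to 0.0007 with normexp and quantile normalization. G6pc1, the catalytic subunit of glucose-6-phosphatase and the brightest of them, differed by −0.15 ± 0.21 (SE, limma adjusted p = 0.746) and by 0.12 after quantile normalization. Of 9 genes of the fasting and amino acid stress response 0 were called (1 higher and 2 lower unadjusted), with a median of −0.25. Atf4, the factor that leads this response, differed by −0.25 ± 0.20 (SE, limma adjusted p = 0.534). Atf3, an immediate stress-response factor, read 0.59, 0.87, 1.12, −1.53 and −1.35 on the high-fat arrays and −0.01, −0.13 and −0.70 on the chow arrays. High-fat arrays 4 and 5, where Igfbp1 and Igfbp2 were lowest in that group, were also lowest for Atf3. On chow the order was reversed: Atf3 was lowest on array 3, where Igfbp1 and Igfbp2 were highest, and highest on array 1, where they were lowest. No test was made of these orders.

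For 3 genes of the axis the features with the most similar profile were sought among 10711 others with a symbol that were above background on every array. Likeness was the root mean square difference of the centred log2 values over 8 arrays. Nearest to Ghr were Mrpl49, Sccpdh and Prrg2 (0.07 to 0.08). Nearest to Igf1 were the sulfotransferase Sult1c3, the translation elongation factor Eef1a1 and Lyrm9 (0.05 to 0.06). Igfbp1 had no profile as close, and its nearest were the mitochondrial deacetylase Sirt3, the thioesterase Acot4 and the translation inhibitor Eif4ebp3 (0.25 to 0.26). The values were not scaled, so this distance also depends on a gene's own spread. The SD within diets was 0.68 for Igfbp1, against 0.15 for Ghr and 0.23 for Igf1, so the distances of the 3 genes are not comparable.

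The upstream sequence of the hormone gene and of the insulin-responsive binding protein gene is given because both hold a letter run of the insulin response element. The 250 bases before the annotated start were read from RefSeq promoters of the GRCr8 assembly, which held 8 of the 9 genes (all but Socs2). They were searched on both strands for CAAAACA, the core of that element, and for TTCNNNGAA, the STAT5 motif, which do not overlap each other here. CAAAACA, in capitals below, was found in 2 of the 8, Igfbp1 and Igf1, against 5.46% of 33469 promoters, and TTCNNNGAA in 0 of the 8, against 7.67%. The run begins at position −121 in Igfbp1 and −67 in Igf1, counted from −1 at the base before the start. These are matches of letters only, and no value of the arrays bears on binding there. The Igfbp1 window is chr14:86261027-86261276 and the Igf1 window chr7:24172282-24172531, both on the plus strand.
Igfbp1: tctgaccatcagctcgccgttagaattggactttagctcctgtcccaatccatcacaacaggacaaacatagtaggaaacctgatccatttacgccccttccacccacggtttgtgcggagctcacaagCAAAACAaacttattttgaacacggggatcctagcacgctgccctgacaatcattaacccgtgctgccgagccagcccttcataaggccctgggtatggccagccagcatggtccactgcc
Igf1: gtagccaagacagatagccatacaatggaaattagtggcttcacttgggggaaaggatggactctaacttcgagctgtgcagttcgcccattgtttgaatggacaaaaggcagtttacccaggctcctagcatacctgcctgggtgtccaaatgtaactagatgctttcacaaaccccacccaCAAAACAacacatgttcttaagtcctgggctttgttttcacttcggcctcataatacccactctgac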

How the data were processed

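Per the submitters' processing notes, scans were read with Agilent Feature Extraction 11.0.1.1. Per the file headers, the deposited processed signal is an intensity from which the software took background and spatial trends, array by array, with no scaling across arrays; median spot and local background intensity and spot marks are also deposited. The authors' value table, used as an alternative, holds log2 values, and how it was made is not given in the sources used here.

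Outlier spots (331 to 550 on an array) were dropped, spots of a probe averaged as log2, and the 75th percentile of the array subtracted. Probes entered where 3 or more arrays had a share of 0.5 or more of the spots well above background, and the brightest kept probe of a gene was used. Of 30367 probes 18005 matched a GRCr8 symbol. Diets were compared with limma 3.58.1 in R 4.3.3 (lmFit, eBayes, two-sided), tested on simulated data. A second fit took all 25627 kept probes. Named genes were the 9 members, in each pathway list up to 3 called genes and the brightest, and 3 profile neighbours each of Ghr, Igf1 and Igfbp1. The members and lists were chosen with earlier results of these data known. Correlations between arrays ran from 0.967 to 0.989.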

Additional observations from a re-analysis of the deposited data

How the results depend on the processing

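The 9 genes had 193 values under alternatives, of which 186 kept their direction and their side of the threshold. These values are not independent, since all reuse the same arrays, and 8 per gene only left out a single array. Settings that removed or tightened the filter on dim probes left every difference unchanged and could move only its p-value. The tally is therefore no measure of robustness. Igf1 turned to 0.13 with quantile normalization and with the authors' value table, 0.11 with cyclic loess and 0.16 with normexp and quantile normalization, and Igfbp1 to 0.0057 with the replicate block. The number of the 9 genes called was 0 in 20 of 21 alternatives and 1 with normexp and quantile normalization (Igfals). With single arrays left out it was 0 in all 8 fits, and the Socs2 difference ran from −0.33 to 1.37.

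The count over all features, 815, moved to 149 with normexp, 2115 with normexp and quantile normalization, 486 for features above background on all arrays, 3023 with array weights, 84 with slide as a random block, 1978 and 2902 against the high-fat arrays of the first and second scan, and 374 to 789 with single arrays left out (374, 440 and 432 without chow array 1, 2 and 3, and 455 without high-fat array 2). Of the 815, 703 were higher and 112 lower, against 798 and 294 with quantile normalization, 699 and 273 with cyclic loess, 830 and 310 with the authors' table and 1038 and 1077 with normexp and quantile normalization. With normexp the median over all features was −0.29. Against that median the lists of growth hormone signalling and of the IGF system stood at 0.23 and 0.19, and at 0.11 and 0.10 in the fit reported. The pathway count, 1, moved to 0 with normexp, with features above background on all arrays and with slide as a random block, to 2 with quantile normalization and the authors' table, to 3 with normexp and quantile normalization and against either scan, to 9 with array weights, and ran from 0 to 3 with single arrays left out.

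Deviations of same-numbered arrays correlated at 0.045, 0.035 and 0.065, and those of arrays with different numbers at −0.12 to 0.075. With 3 chow arrays this check cannot decide whether replicate numbers pair the arrays, and the fit reported uses no pairing. With the replicate number as a block 0 features and 0 pathway genes passed (3050 and 6 at an unadjusted p of 0.05).

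Pathway genes that changed sign were G6pc1 (0.12, 0.13, 0.0040, 0.16 and 0.12 with quantile, cyclic loess, normexp, normexp and quantile, and the authors' table, and 0.024 for the first scan), Obp3 (0.14, 0.17, 0.26 and 0.14 with quantile, cyclic loess, normexp and quantile, and the authors' table), Grb14 (−0.046 with array weights, −0.23 for the second scan), Igf2r (−0.032 for the second scan), and Atf4, Atf3 and Cish (0.053, −0.19 and −0.27 for the first scan). With single arrays left out Grb14 ran from −0.039 to 0.19, Obp3 from −0.36 to 0.092, Onecut1 from −0.28 to 1.76, Prlr from −1.20 to 0.22, Atf3 from −0.078 to 0.58 and Cish from −0.029 to 0.38. For these changes of sign the cause was not tested. Keeping outlier spots was chosen after seeing the data and gave 805 features. All 13 probes were well above background on all 8 arrays.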
